A study of Mus musculus with 18 samples.

Results

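Ribosomal proteins are the protein part of the cytosolic ribosome, and their genes were followed here across heart cells of ageing mice. The set held 83 of the 19094 protein-coding genes of the deposited table. Its members were taken by symbol, as the Rpl and Rps genes with a number, together with Rplp0, Rplp1, Rplp2 and Rpsa and without the Rps6k kinases. By name, 43 encode proteins of the large subunit, 31 proteins of the small subunit and 3 the acidic stalk, and 6 are paralogs (Rpl3l, Rpl10l, Rpl22l1, Rpl7l1, Rpl39l and Rps27l). The rule uses symbols and no measured value, though it was set with earlier results of these data known.

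The study sequenced messenger RNA of cardiomyocytes and cardiac fibroblasts isolated from 3 mice carrying Bag3-P209L, labelled Tg+, and from 3 Bag3-WT controls at 16 months of age. BAG3 helps chaperones to clear damaged proteins in striated muscle. The labels name no promoter for the transgene. Each mouse gave 2 cardiomyocyte libraries, whose counts were summed, and 1 fibroblast library, so that each cell type had 3 Tg and 3 WT mice, named Tg1 to Tg3 and WT1 to WT3 below.

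Ribosomes translate messenger RNA into protein. Each is built from a small subunit, which reads the message, and a large subunit, which joins amino acids, and each subunit carries 1 copy of most of its proteins. The messages of nearly all ribosomal proteins begin with a terminal oligopyrimidine tract, through which the mTORC1 kinase and LARP1 set their translation together. A few proteins have a second gene. Rpl3l is made in heart and skeletal muscle and can take the place of Rpl3, a protein of the large subunit near the peptidyl transferase centre. Rpl10l is known from testis, where it stands in for the X-linked Rpl10, whose protein joins the large subunit late in assembly.

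Both pairs are close in coding sequence but not so close that reads are interchangeable, and the starts of their reading frames are shown because the contrasts below rest on telling the copies apart. They are the first 60 coding bases of the GENCODE M21 transcripts on GRCm38, with capitals where the copies of a pair differ.
Rpl3l: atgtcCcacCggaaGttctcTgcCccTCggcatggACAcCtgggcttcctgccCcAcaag
Rpl3: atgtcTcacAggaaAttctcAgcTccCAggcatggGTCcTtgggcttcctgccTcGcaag
Rpl10l: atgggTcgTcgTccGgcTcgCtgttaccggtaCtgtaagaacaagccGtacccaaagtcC
Rpl10: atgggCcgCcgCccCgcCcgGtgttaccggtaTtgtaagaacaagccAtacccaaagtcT
The pair of Rpl3 differed at 13 of these 60 bases and the pair of Rpl10 at 9. Over the whole aligned coding sequence Rpl3l was 74.3% identical to Rpl3, and Rpl10l was 84.7% identical to Rpl10. No stretch of 31 bases of either paralog occurred in its partner.

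Rpl3l lies on chromosome 17 at 24727820 to 24736143, plus strand, with 10 exons, and Rpl3 on chromosome 15 at 80077791 to 80091868, minus strand, also with 10 exons. Rpl3l shared no 31-base stretch with the annotated transcripts of any other gene. Rpl10l is a single-exon gene on chromosome 12 at 66283379 to 66284401, minus strand, and Rpl10 has 7 exons on the X chromosome at 74270812 to 74273135, plus strand. Of the 31-base stretches of Rpl10l, 23.4% also occurred in the transcripts of 1 other gene, Gm14460. Most other members have many processed copies in the genome, and the median member shared 63.3% of its 31-base stretches with another annotated gene. Their counts therefore depend on how the authors' quantification divided reads between copies.

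Expression is given as CPM, the counts of a gene per 1000000 nuclear counts, scaled over all 12 columns by trimmed means (TMM). The 13 mitochondrial genes were left out because they took 51.7% to 85.5% of the counts of a cardiomyocyte column and 16.7% to 74.2% of a fibroblast column. Nuclear counts ran from 2261653 to 7793062 in cardiomyocytes and from 11309883 to 15811137 in fibroblasts, so a floor of 3 counts corresponds to 0.38 to 1.33 and to 0.19 to 0.27 CPM before TMM scaling. Nothing in the labels says how far the 2 cardiomyocyte libraries of a mouse are separate preparations. The defining markers separated the labelled cell types in part. All 8 cardiomyocyte markers, among them Myh6 and Tnnt2, were past the threshold with higher values in cardiomyocyte columns, where their summed level was 2540 to 6454 CPM against 1050 to 2614 CPM in fibroblast columns. The 8 fibroblast markers did not follow the label: Tcf21 was lower in cardiomyocyte columns (log2 fold change −0.96), whereas Col1a1 was higher there (2.55), and their sum was 4926 to 18770 CPM in cardiomyocyte and 1739 to 5502 CPM in fibroblast columns. All 8 macrophage markers were lower in cardiomyocyte columns, with sums of 984.5 to 3327 CPM against 4721 to 15520 CPM in fibroblast columns. No marker of the 7 lists was at 0 in all columns. The contrasts between cell types below compare these mixtures, and in such bulk samples fewer cells of a type and less RNA per cell cannot be told apart.

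All but a few ribosomal protein genes were strongly expressed in both cell types. Per kilobase of transcript, the median member reached 570.5 CPM in cardiomyocytes and 530.0 CPM in fibroblasts (mean of 6 mice each), and 73 and 72 of the 83 members were above 100 CPM per kilobase. Highest per length in cardiomyocytes were Rplp1, a stalk protein, at 1928 CPM per kilobase, Rps14, which lines the path of the message in the small subunit, at 1818, and Rps15 at 1637. In fibroblasts the top 3 were Rplp1 at 1751 CPM per kilobase, Rps14 at 1568 and Rpl13 at 1337. At the other end stood Rpl39l at 0.52 CPM per kilobase in cardiomyocytes and 0.58 in fibroblasts, near the floor, and Rpl12 at 5.26 and 3.88. Rpl5, which binds the 5S ribosomal RNA, had 7.99 CPM per kilobase in cardiomyocytes, and Rpl10l had 0.09 in fibroblasts.

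Among the low members, 2 have a copy with its own row. A single-exon copy of Rps12 named Rps12-ps3, with a coding sequence identical to that of Rps12, held 97.1% of the counts of both rows together. Rpl27-ps3, identical to Rpl27 over its 408 coding bases, held 92.1% of the counts of its pair. For Rps12 and Rpl27 the member's own row thus holds the smaller part, and their values are given below also with the copies added. For Rpl5 and Rpl12 no such row was found under the symbols searched, and the reason for their low counts was not tested.

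Together the 83 genes took a larger share of nuclear counts in cardiomyocytes than in fibroblasts of 5 of the 6 mice. Taken of all counts, mitochondrial genes included, the within-mouse difference was in the other direction, averaging −0.807 percentage points (SD 0.825, n = 6 mice). The share was 4.33%, 4.24% and 3.65% in cardiomyocytes of Tg1, Tg2 and Tg3 and 3.66%, 4.67% and 4.15% in those of WT1, WT2 and WT3. In fibroblasts it was 2.85%, 2.42% and 4.52% in Tg1, Tg2 and Tg3 and 2.65%, 3.09% and 2.49% in WT1, WT2 and WT3. Tg3 was the exception, as its cardiomyocytes had the lowest and its fibroblasts the highest share of their cell type. Counting error was small beside the differences between cell types, since the exact 95% binomial interval of a share reached at most 0.026 percentage points to either side. The intervals of Tg3 and WT1 cardiomyocytes overlapped, at 3.62% to 3.67% and 3.64% to 3.69%, so the order of these lowest shares is not resolved. The within-mouse difference between cell types averaged 1.11 percentage points (SD 1.01, n = 6 mice). It was 1.48, 1.82 and −0.87 points in the Tg mice and 1.01, 1.58 and 1.66 points in the WT mice.

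**Figure D1:**
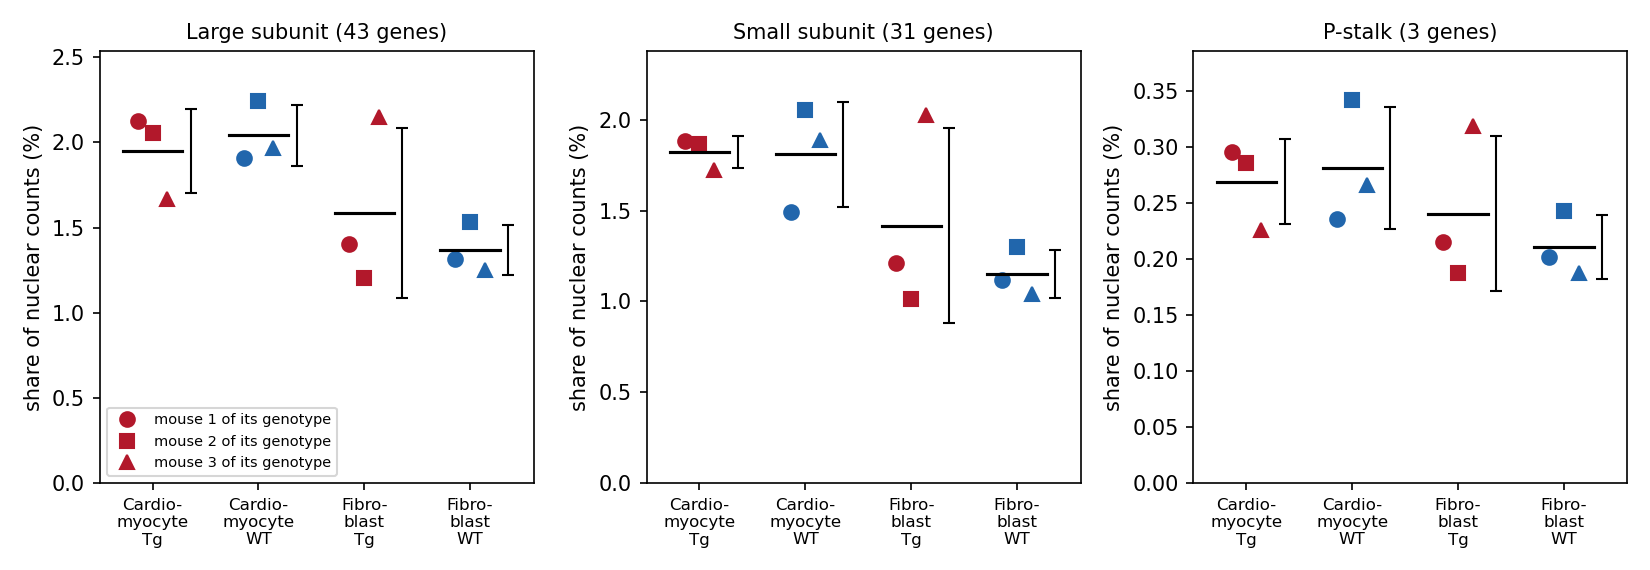
Share of nuclear counts (%) taken by genes of the large subunit, the small subunit and the P-stalk, by cell type and genotype; points are mice (red Tg, blue WT), bars are means and whiskers SD (n = 3). In every panel Tg3 has the highest fibroblast share, and the other 5 fibroblast columns lie below its value.

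The subunits are given apart in the plot of shares. The large subunit proteins averaged 1.95 ± 0.25% of nuclear counts in Tg and 2.04 ± 0.18% in WT cardiomyocytes, and 1.59 ± 0.50% in Tg and 1.37 ± 0.15% in WT fibroblasts (SD, n = 3 mice each). The small subunit proteins averaged 1.82 ± 0.09% in Tg and 1.81 ± 0.29% in WT cardiomyocytes, and 1.42 ± 0.54% in Tg and 1.15 ± 0.13% in WT fibroblasts. These shares carry no TMM scaling. That scaling set the cardiomyocyte columns against the fibroblast columns so that the median log2 fold change between cell types over all genes was −0.02, where unscaled library sizes gave 0.38. The median of the ribosomal protein genes was 0.05 with scaling and 0.45 without, and 45 and 76 of the 82 members tested were positive. With scaling, 49.3% of all genes were positive. The median of the members moved with 1 mouse: without Tg3, under TMM, it was 0.22 beside 0.06 over all genes, and 65 of 82 members were positive. The share of all genes that were positive was not computed without scaling or without Tg3.

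Gene by gene, the cell types differed in few ribosomal protein genes. Of 82 members tested (Rpl39l was too low), 8 were higher and 1 was lower in cardiomyocytes than in fibroblasts of the same mice at an adjusted p below 0.05 (edgeR quasi-likelihood test with the mouse as a block, Benjamini-Hochberg over all genes). Over all 13284 genes tested, 20.4% were higher and 24.7% were lower, 45.1% in all. The 9 members called of 82 were thus a smaller share than that background. On library sizes without TMM the split was 20 higher and 0 lower, beside 34.5% and 16.2% of all genes, 50.7% in all. All of the 8 called higher, and no other member, were higher in cardiomyocytes of all 6 mice, a pattern found in 17.9% of all genes. Another 6 members were lower in all 6 mice (Rpl23, Rpl27, Rpl4, Rpl7l1, Rplp0 and Rps2), against 24.3% of all genes, and of these Rpl27 was the only one called.

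**Figure D2:**
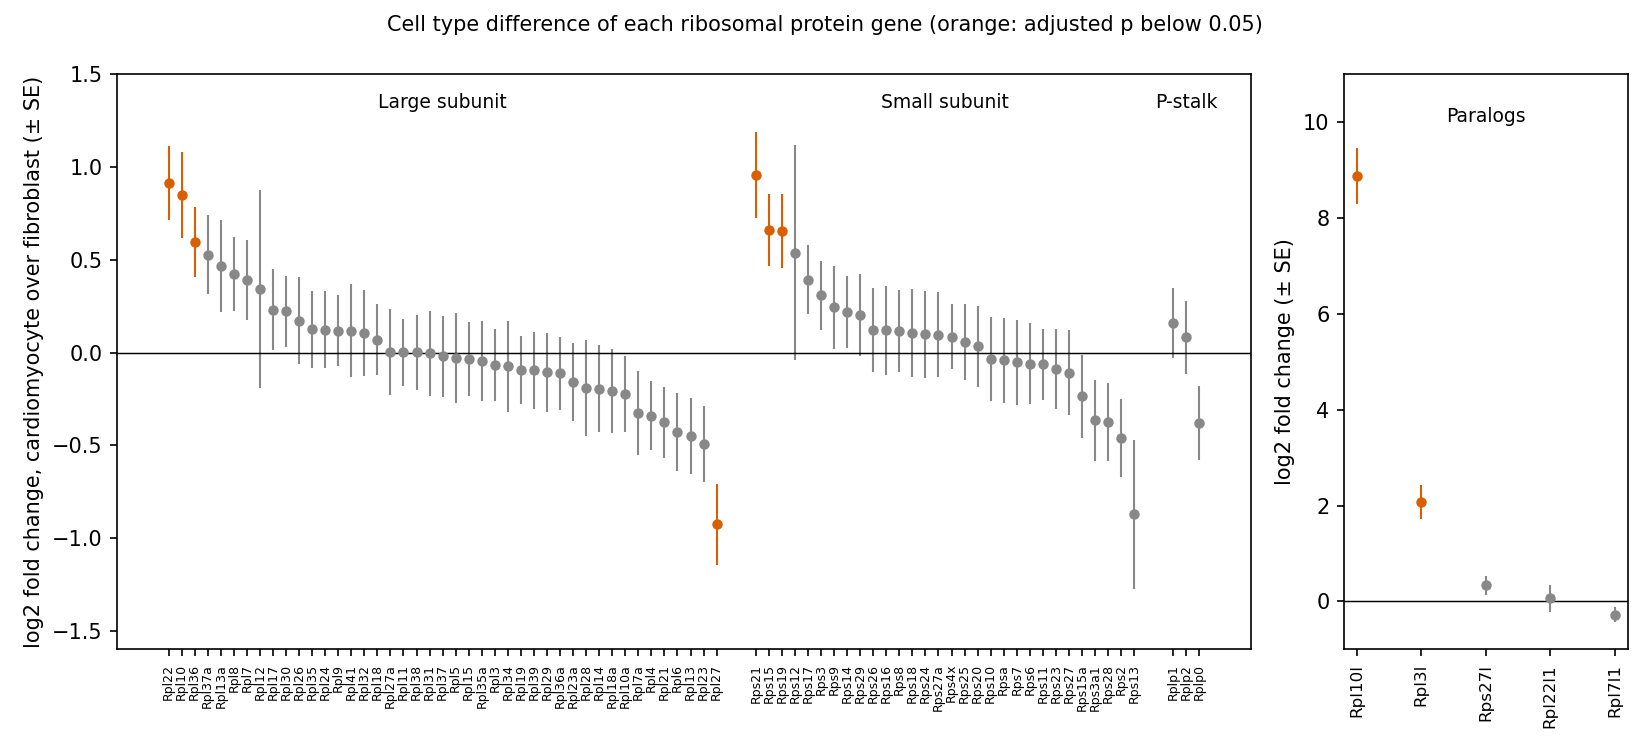
Log2 fold change of 81 of the 82 members tested, cardiomyocyte over fibroblast, with its SE, ordered within large subunit, small subunit, P-stalk and paralogs; orange marks an adjusted p below 0.05. Most standard genes lie between −0.5 and 0.5, whereas Rpl10l (8.88) and Rpl3l (2.08) stand far above; the paralog panel has its own axis.

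Among standard proteins of the large subunit, Rpl22, an RNA-binding protein, had 263.7, 268.8 and 463.9 CPM in Tg and 373.8, 223.7 and 408.1 CPM in WT cardiomyocytes, against 159.9, 148.3 and 233.8 CPM in Tg and 162.2, 186.8 and 149.7 CPM in WT fibroblasts. WT2 cardiomyocytes fell below Tg3 fibroblasts, so the cell types overlapped by that pair of values although every mouse was higher in its cardiomyocytes. The log2 fold change was 0.91 (SE 0.20, adjusted p = 0.0037, edgeR). Rpl10 had a log2 fold change of 0.85 (SE 0.23, adjusted p = 0.012, edgeR) and Rpl36 one of 0.59 (SE 0.19, adjusted p = 0.025, edgeR).

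Rps21, a small subunit protein, rose most among the standard genes. It had 422.1, 473.9 and 1186 CPM in Tg and 339.3, 410.1 and 834.5 CPM in WT cardiomyocytes, against 261.0, 221.6 and 499.7 CPM in Tg and 262.2, 295.8 and 226.1 CPM in WT fibroblasts. Cardiomyocytes of Tg3 and WT3 were high, and the other 4 cardiomyocyte columns were below Tg3 fibroblasts. Its log2 fold change was 0.96 (SE 0.23, adjusted p = 0.0066, edgeR). Rps15 rose by 0.66 (SE 0.20, adjusted p = 0.018, edgeR) and Rps19, which is mutated in Diamond-Blackfan anaemia in humans, by 0.65 (SE 0.20, adjusted p = 0.021, edgeR). Leaving out WT3 ended the calls of Rps15, Rps19 and Rpl36 (adjusted p = 0.073, 0.085 and 0.095, edgeR) and brought the number called to 6. Leaving out Tg3 brought it to 15, of which 14 were higher and 1 was lower, beside 24.9% and 25.3% of all genes, 50.2% in all.

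Rpl27 was the only member called lower in cardiomyocytes. It had 16.4, 16.4 and 14.5 CPM in Tg and 20.6, 22.6 and 12.6 CPM in WT cardiomyocytes, against 33.0, 38.7 and 34.7 CPM in Tg and 22.4, 36.5 and 29.3 CPM in WT fibroblasts. The cell types overlapped by 1 pair of values, WT2 cardiomyocytes and WT1 fibroblasts, and each mouse was lower in its cardiomyocytes. Its log2 fold change was −0.93 (SE 0.22, adjusted p = 0.0056, edgeR). With the row of its copy Rpl27-ps3 added, the log2 fold change was 0.04 (SE 0.21, adjusted p = 0.904, edgeR), so the call held for the member's own row and not for the sum. The own row also missed the threshold without TMM (adjusted p = 0.0974) and with the rep1 libraries alone (adjusted p = 0.0705, edgeR).

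The stalk proteins and Rpsa did not pass. Rplp0, the base of the stalk, averaged 1011 CPM in cardiomyocytes and 1304 CPM in fibroblasts (log2 fold change −0.38, SE 0.20, adjusted p = 0.141, edgeR). Rplp1 and Rplp2 had log2 fold changes of 0.16 and 0.08. Rpsa, a small subunit protein also known as the laminin receptor, averaged 548.5 CPM in cardiomyocytes and 560.6 CPM in fibroblasts.

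Rpl3l had the largest log2 fold change between cell types among members with counts in every column. It had 17.1, 100.3 and 25.5 CPM in cardiomyocytes of Tg1, Tg2 and Tg3 and 42.0, 42.0 and 33.9 CPM in those of WT1, WT2 and WT3. In fibroblasts it had 6.88, 6.60 and 11.1 CPM in Tg1, Tg2 and Tg3 and 15.6, 7.96 and 6.81 CPM in WT1, WT2 and WT3. The lowest cardiomyocyte column, Tg1, was just above the highest fibroblast column, WT1, so the cell types did not overlap. The log2 fold change was 2.08 (SE 0.35, adjusted p = 0.00086, edgeR), and it held in all 6 mice. WT1, whose fibroblasts had the highest Rpl3l, also had the highest sum of cardiomyocyte markers of any fibroblast column, 2614 CPM; the part of cardiomyocyte RNA in that value was not tested.

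Rpl3 itself did not pass. It had 621.4, 682.2 and 715.3 CPM in Tg and 422.4, 565.1 and 787.4 CPM in WT cardiomyocytes, against 598.7, 630.2 and 722.5 CPM in Tg and 637.1, 720.8 and 605.5 CPM in WT fibroblasts. The cell types overlapped fully (log2 fold change −0.07, SE 0.19, adjusted p = 0.797, edgeR).

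Because both copies are measured in the same column, their ratio is free of scaling between columns. Rpl3l made up 2.68%, 12.8% and 3.44% of the summed counts of Rpl3l and Rpl3 in cardiomyocytes of Tg1, Tg2 and Tg3 and 9.05%, 6.92% and 4.13% in those of WT1, WT2 and WT3. In fibroblasts it made up 1.14%, 1.04% and 1.51% in Tg1, Tg2 and Tg3 and 2.40%, 1.09% and 1.11% in WT1, WT2 and WT3. The transcripts are nearly equal in length (1375 and 1351 bases), and per length the means were 6.21 ± 5.56% in Tg and 6.59 ± 2.43% in WT cardiomyocytes, and 1.21 ± 0.25% in Tg and 1.51 ± 0.73% in WT fibroblasts (SD, n = 3 mice each). Within each mouse the ratio of Rpl3l to Rpl3 was higher in cardiomyocytes, by 2.39-fold, 14.0-fold and 2.33-fold in Tg1, Tg2 and Tg3 and by 4.06-fold, 6.72-fold and 3.82-fold in WT1, WT2 and WT3. The geometric mean was 4.48-fold (log2 difference 2.16, SD 0.98, n = 6, two-sided exact sign-flip p = 0.0312, the smallest that 6 mice allow). Rpl3 remained the main copy by counts in every column.

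The ratio did not separate the genotypes. Its mean log2 difference, Tg minus WT, was −0.38 in cardiomyocytes and −0.24 in fibroblasts (two-sided exact permutation p = 0.7 for each with 3 mice a group, where the smallest possible p is 0.1). In cardiomyocytes the Tg mice held both the highest value, in Tg2, and the 2 lowest, in Tg1 and Tg3. In the repeat libraries rep1 and rep2, Rpl3l had 20.01 and 21.06 CPM (unscaled) in Tg1, 132.3 and 116.0 in Tg2 and 22.3 and 25.7 in Tg3, against 46.3 and 47.1 in WT1, 65.0 and 48.3 in WT2 and 26.6 and 37.4 in WT3. Both libraries of Tg2 were thus above those of every other mouse. The fitted log2 fold change of Rpl3l by genotype in cardiomyocytes was 0.24 (SE 0.61, adjusted p = 1.00, edgeR) and was −0.87 without Tg2.

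Rpl10l had the largest fold between cell types of the members tested. Its summed counts were 93, 232 and 374 in cardiomyocytes of Tg1, Tg2 and Tg3 and 129, 48.9 and 292 in those of WT1, WT2 and WT3. In fibroblasts they were 1, 0 and 0 in Tg1, Tg2 and Tg3 and 5, 0 and 1 in WT1, WT2 and WT3. All 12 cardiomyocyte libraries held counts, from 10.3 to 320.0, and in fibroblasts 5 of the 6 libraries were under the floor of 3 counts or at 0, while WT1 had 5. Over all mice, 1169 counts in cardiomyocytes, or 51.5 CPM of their summed nuclear counts, stood against 7 counts or 0.083 CPM in fibroblasts, a 619.7-fold ratio of CPM (exact 95% interval 299.8 to 1544.9, counting error only). Of the 7 fibroblast counts 5 came from WT1, and without that mouse the ratio was 1741-fold (480.8 to 14396, from 2 fibroblast counts). Leaving out each of the other mice gave 414.9-fold to 835.1-fold; these values were added after the counts were seen. The call in the fit across genes was at an adjusted p of 1.8e-06 (edgeR), where the fitted log2 fold change of 8.88 depends on the prior count. Rpl10l passed the low-count filter of that fit through its cardiomyocyte columns alone and was too low to be tested by genotype in fibroblasts. The p-value is therefore not read as support beyond the counts. Rpl10l made up 4.12% to 15.1% of the counts of the Rpl10l and Rpl10 pair in Tg and 5.78% to 12.3% in WT cardiomyocytes. In any fibroblast column it made up at most 0.149%. By comparison, the 8 cardiomyocyte markers had log2 fold changes between cell types of only 1.39 (Tnnt2) to 2.24 (Myl2). Why Rpl10l differed by more than these markers was not tested.

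The other pairs were shared more evenly between the cell types. Rpl22l1, the paralog of Rpl22, made up 11.6 ± 4.95% of its pair in Tg and 13.1 ± 5.77% in WT cardiomyocytes, and 21.8 ± 6.33% in Tg and 17.6 ± 0.50% in WT fibroblasts (SD, n = 3 mice each). Its own level did not pass (log2 fold change 0.07, adjusted p = 0.859, edgeR), while Rpl22 was called. Rps27l, the paralog of Rps27 and a p53 target, made up 18.2 ± 3.27% in Tg and 17.4 ± 2.69% in WT cardiomyocytes, and 13.1 ± 1.90% in Tg and 14.2 ± 0.44% in WT fibroblasts. Rpl7l1 made up 8.90 ± 2.86% in Tg and 10.45 ± 4.703% in WT cardiomyocytes, and 13.5 ± 2.27% in Tg and 14.2 ± 0.32% in WT fibroblasts. Rpl36al, a copy of Rpl36a whose symbol falls outside the rule, took close to equal parts, 49.8 ± 5.86% in Tg and 53.2 ± 4.83% in WT cardiomyocytes, and 50.1 ± 2.33% in Tg and 56.1 ± 1.74% in WT fibroblasts. Within mice, Rps27l took a larger part of its pair in cardiomyocytes than in fibroblasts of every mouse. The parts were 21.8% against 15.2% in Tg3 and 14.3% against 14.1% in WT3, where they were closest. Rpl22l1 took a smaller part in cardiomyocytes of every mouse but WT2, and Rpl7l1 of every mouse but WT1. Rpl36al went in both directions. No test was made for these shares.

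**Figure D3:**
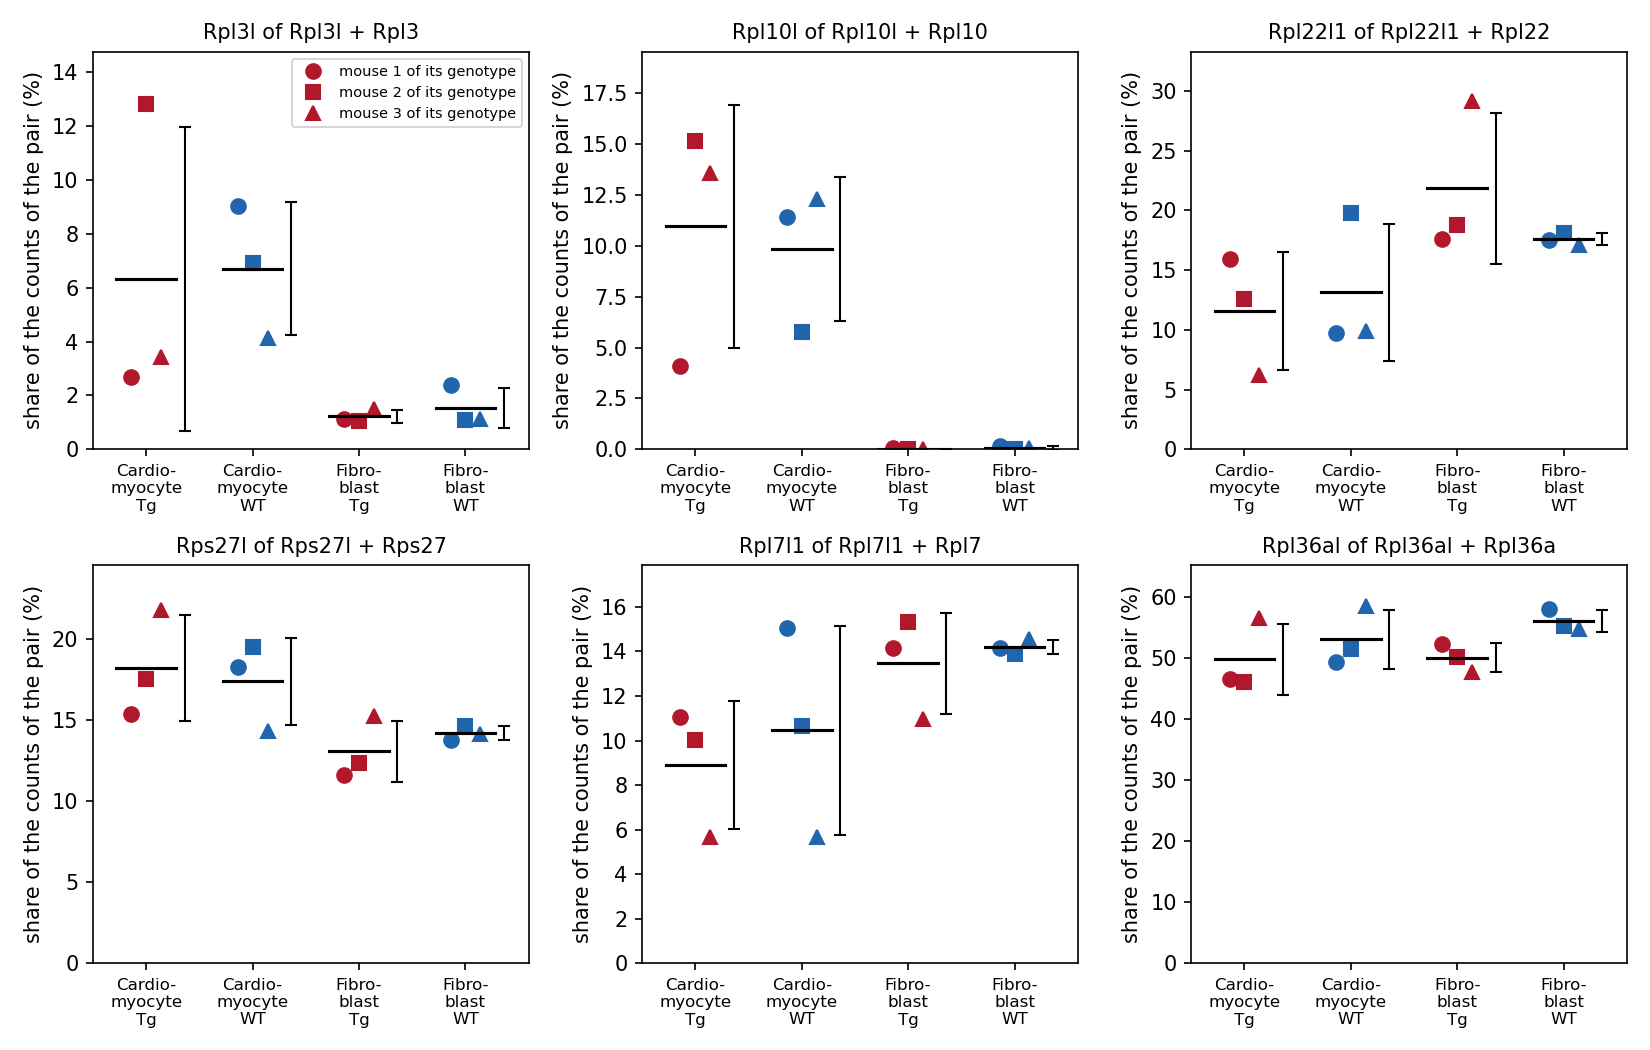
Share of the paralog in the summed counts of its pair (%), by cell type and genotype; points are mice (red Tg, blue WT), bars are means and whiskers SD (n = 3). For Rpl3l and Rpl10l all cardiomyocyte columns lie above all fibroblast columns, and for the other 4 pairs the cell types overlap.

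Proportions among the members varied between the cardiomyocyte columns, though by less than the levels of all genes did. Among Tg cardiomyocytes the median SD of log2 CPM between mice was 0.353 in 82 members, beside 0.577 over all 13284 genes. In WT cardiomyocytes it was 0.326 beside 0.464, in Tg fibroblasts 0.414 beside 0.294 and in WT fibroblasts 0.18 beside 0.221. The ranges that follow were computed for members only. In 80 members that averaged 20 CPM or more in cardiomyocytes or in fibroblasts, the highest of the 6 cardiomyocyte columns was 1.83 times the lowest in the median, and 1.72 times in fibroblasts. In cardiomyocytes it was more than 3 times for 8 members, among them Rps12, Rpl10l, Rps13, Rpl3l, Rpl10, Rps21 and Rpl28. Rpl10 had 227.7, 254.7 and 878.8 CPM in Tg and 397.3, 244.6 and 618.0 CPM in WT cardiomyocytes. Tg3 and WT3, of different genotypes, held its 2 highest values.

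That order, Tg3 and WT3 above the other 4, was seen in 17 of the 80 members, among them Rps9 and Rpl7. It was also seen in 20.3% of all genes tested in cardiomyocytes, so the share of members was near that of all genes. Of the members called higher in cardiomyocytes than in fibroblasts, Rpl10, Rpl10l, Rpl22, Rpl36, Rps15 and Rps21 had that order, and Rpl3l and Rps19 did not. At the same time Tg3 had the lowest value of 31 of the 80 members and WT1 that of 34. These counts of lowest values were not made over all genes, so they do not show a trait particular to the members. Rps13 had 77.2 CPM in Tg3 and 25.3 CPM in WT1, against 160.3 to 261.3 CPM in the other 4 cardiomyocyte columns. The smooth muscle gene Acta2 was highest in Tg3 and WT3, at 2482 CPM in Tg3 and 2171 CPM in WT3. The other smooth muscle markers, Myh11, Tagln and Cnn1, were instead lowest in Tg3 of the cardiomyocyte columns, at 26.8, 154.4 and 2.09 CPM. Tg3 also had the lowest sums of macrophage and erythroid markers of these columns, 984.5 and 72.1 CPM. The sums of endothelial markers were lowest in Tg3 and WT3, at 1570 and 1568 CPM, against 2264 to 3710 CPM in the other 4 cardiomyocyte columns. Whether these move the ribosomal protein values was not tested.

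**Figure D4:**
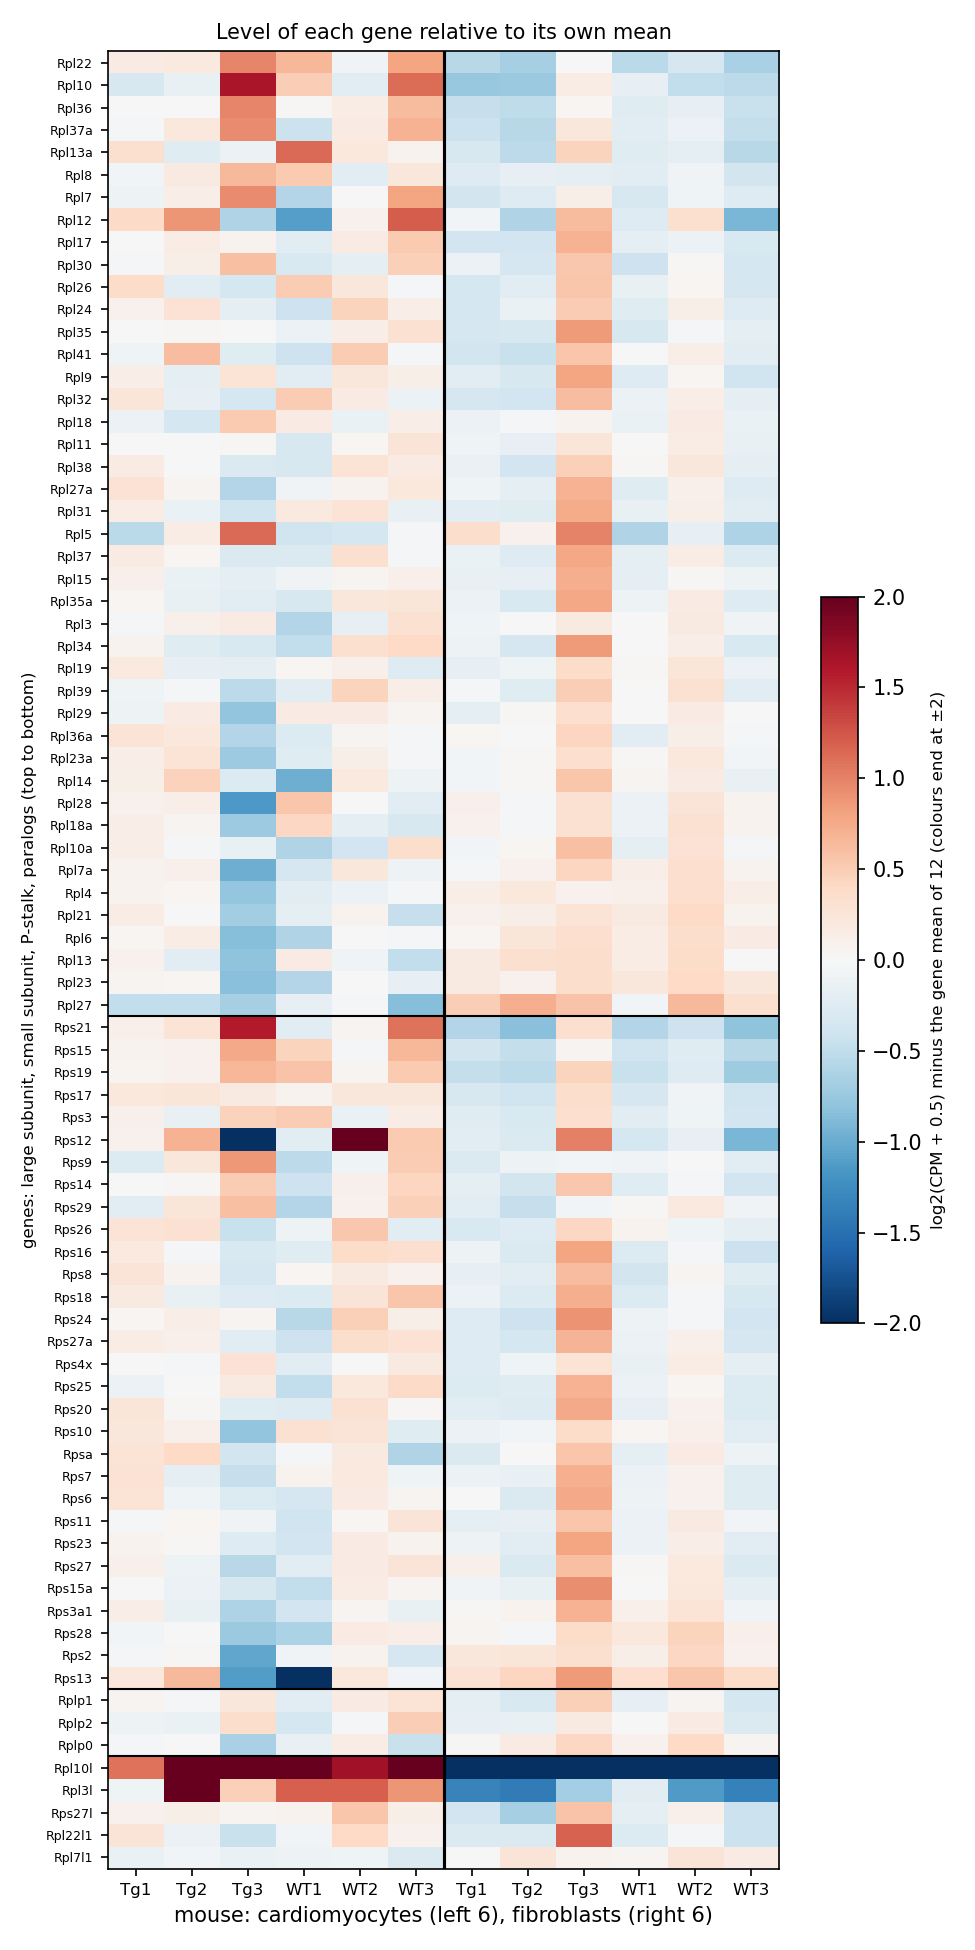
Log2(CPM + 0.5) of 81 members in the 12 columns, each gene centred on its own mean; rows run through large subunit, small subunit, P-stalk and paralogs, columns through Tg1 to Tg3 and WT1 to WT3 of cardiomyocytes and then of fibroblasts. Most members are above their mean in Tg3 fibroblasts, and cardiomyocytes of Tg3 are high in Rpl10 and Rps21 while low in Rps2, Rps13 and Rpl28.

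Between genotypes, no ribosomal protein gene passed the threshold in cardiomyocytes. Of 82 members tested, 30 had a positive log2 fold change, beside 51.4% of all 12114 genes. The median was −0.04, beside 0.01 over all genes. The share of all genes called was 0.0%, and an unadjusted p below 0.05 was reached by no member and by 87 of all genes (edgeR). DESeq2 called no member and 3 of all genes. The large subunit median was −0.03 and the small subunit median −0.05, with a median SE of a single member of 0.36.

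The members with the lowest p in cardiomyocytes were Rps12, Rpl5 and Rpl13a. Rps12 had 14.9, 23.1 and 2.44 CPM in Tg against 12.1, 62.2 and 20.4 CPM in WT cardiomyocytes (log2 fold change −1.24, SE 0.82, adjusted p = 1.00, edgeR). The groups overlapped, and with its copies added the log2 fold change was −0.14. Rpl5 had 10.2, 16.6 and 33.6 CPM in Tg against 11.2, 11.7 and 14.6 CPM in WT cardiomyocytes (0.67, SE 0.50). Rpl13a, a large subunit protein that can leave the ribosome to repress translation in inflamed macrophages, had 1163, 780.2 and 849.9 CPM in Tg against 2043, 1073 and 977.1 CPM in WT cardiomyocytes (−0.57, SE 0.43), where WT1 alone was above the rest by far. No member had all 3 Tg cardiomyocyte columns above or below all 3 WT columns, against 2.36% of all genes above and 2.59% below.

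In fibroblasts 77 of 81 members had higher fitted values in Tg, without a single call, and this majority was lost without 1 mouse. Over all 13858 genes, 52.3% had higher fitted values in Tg. The median log2 fold change of the members was 0.23 beside 0.02 over all genes. None passed the threshold (0.0% of all genes called). An unadjusted p below 0.05 was reached by 1 member and by 699 of all genes (edgeR), and DESeq2 called no member and 6 of all genes. Tg3 had the highest value of 64 of the 80 members that averaged 20 CPM or more in cardiomyocytes or in fibroblasts. Without Tg3 the median of the members was −0.05, and 19 of 81 had higher fitted values in Tg. Neither the count of 64 nor that of 19 was made over all genes, so they do not show a trait particular to the members. Tg3 was also the fibroblast column with the lowest sums of macrophage markers (4721 CPM, against 8201 to 15520 CPM in the other 5), of lymphocyte markers (22.6 CPM) and of erythroid markers (163.1 CPM, against 2931 to 14810 CPM). The part of these cells in the difference was not tested.

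**Figure D5:**
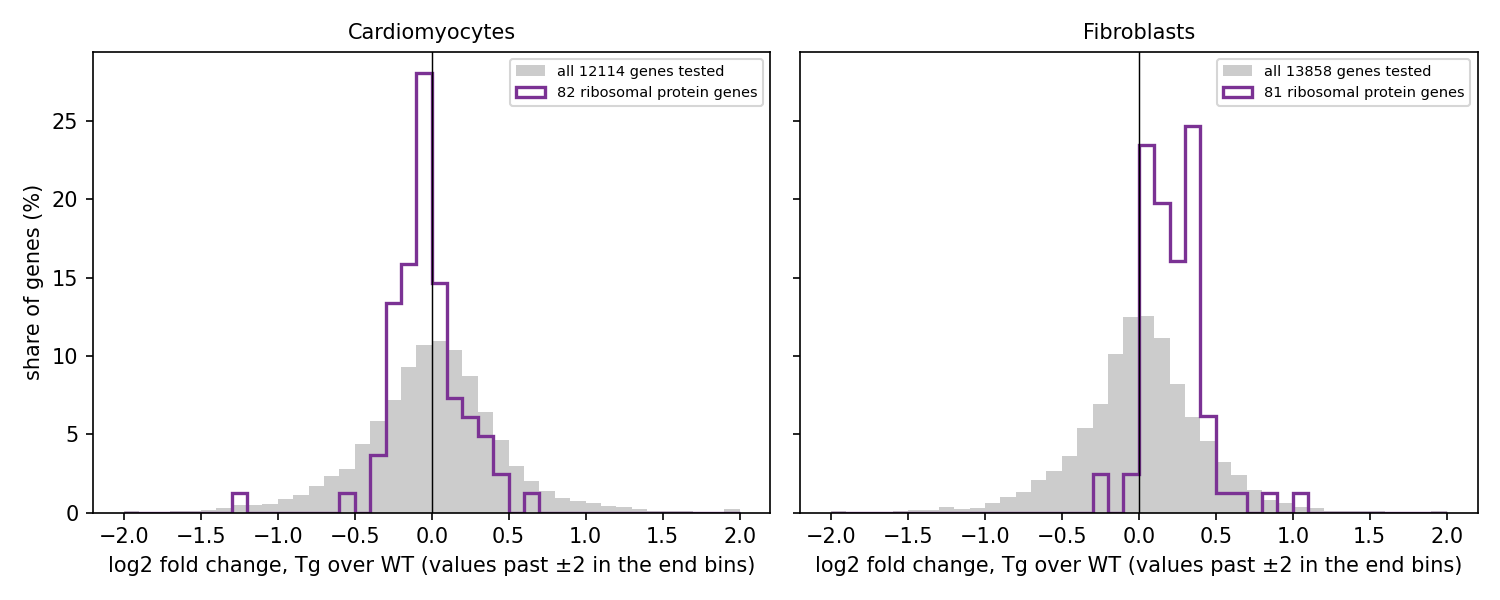
Distribution of log2 fold changes, Tg over WT, in cardiomyocytes and fibroblasts; grey bars are all genes tested and the line is the ribosomal protein genes, as a share of genes (%) in bins of equal width. The members centre near −0.04 in cardiomyocytes and near 0.23 in fibroblasts.

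The member with an unadjusted p below 0.05 in fibroblasts was Rpl5, which with Rpl11 and 5S ribosomal RNA can bind MDM2. It had 19.4, 15.9 and 30.5 CPM in Tg against 9.75, 13.3 and 9.66 CPM in WT fibroblasts (log2 fold change 1.06, SE 0.30, adjusted p = 0.782, unadjusted p = 0.0078, edgeR). All 3 Tg columns were above all 3 WT columns, which was the case for 4.21% of all genes, while no member had them all below, against 8.79%. Rpl5 shares 94.8% of its 31-base stretches with other annotated genes. Its partner Rpl11 had 410.6, 392.4 and 515.3 CPM in Tg against 440.3, 486.0 and 393.6 CPM in WT fibroblasts, with overlap. Next by p were Rps12 at 12.1, 11.4 and 28.8 CPM in Tg against 10.83, 12.4 and 7.22 CPM in WT fibroblasts, and Rpl22l1 at 34.2, 34.2 and 96.0 CPM in Tg against 34.5, 41.4 and 30.95 CPM in WT fibroblasts. For both, Tg3 alone stood out. The log2 fold change of Rps12 was 0.85, 0.26 without Tg3 and 0.52 (SE 0.39) with its copies added, and that of Rpl22l1 was −0.01 without Tg3.

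The difference of the genotype effects, cardiomyocytes minus fibroblasts, was not called for any member. It was tested as an interaction for 82 members, of which 24 were positive, beside 54.5% of all 14223 genes. The median was −0.14 beside 0.05 over all genes (0.0% called). An unadjusted p below 0.05 was reached by no member and by 138 of all genes (edgeR), and DESeq2 called no member and 1 of all genes. The lowest p belonged to Rps12 (−1.75, SE 1.080), Rpl10l (2.16, SE 1.37) and Rpl13a (−0.67, SE 0.49), each with an adjusted p of 1.00 (edgeR). For Rps12 the value was −0.36 (SE 0.53, adjusted p = 1.00, edgeR) with its copies added and −0.795 without Tg3. For Rpl10l the value ran from 0.628 to 4.31 when 1 mouse was left out. Its fibroblast part rests on counts of 1, 0 and 0 in Tg and 5, 0 and 1 in WT, so the Rpl10l value carries no reading.

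Genes that build ribosomes are described by a list of 59 genes of ribosome biogenesis, all tested. Of these, 2 were higher and 30 lower in cardiomyocytes, beside 20.4% higher and 24.7% lower over all genes, with a median log2 fold change of −0.67 beside −0.02 over all genes. Ddx21, a nucleolar helicase, averaged 62.1 CPM in cardiomyocytes and 264.2 CPM in fibroblasts (−2.13, SE 0.22, adjusted p = 3.6e-05, edgeR). Nop56 and Fbl, core proteins of box C/D snoRNPs, averaged 27.3 and 45.2 CPM in cardiomyocytes and 73.5 and 106.4 CPM in fibroblasts. Gnl3l, at 45.3 CPM in cardiomyocytes and 28.6 CPM in fibroblasts, was one of the 2 that were higher. Macrophage marker sums moved with this contrast as given above, and their part in it was not tested.

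The lists that follow are to be read against the same shares of all genes, 20.4% higher and 24.7% lower. Of 24 other genes with a terminal oligopyrimidine tract or a role in translation that the rule leaves out, 3 were higher and 1 lower in cardiomyocytes (median 0.24). Among those higher were the initiation factor subunits Eif3k (0.75) and Eif3e (0.56), and lower was Eif2s3x (−0.66). Of 22 regulators of these messages, 5 were higher and 8 lower (median −0.03). Tial1 and Tia1, which bind such messages under stress, were higher by 1.21 and 1.197, and the cap-binding factor Eif4e was lower (−1.68, SE 0.20, adjusted p = 8.0e-05, edgeR). All 6 genes tested around the 5S particle and p53 other than Rpl5 and Rpl11 were lower, among them Mdm2 (−2.41, SE 0.22) and Cdkn1a (−2.81, SE 0.28), while Rpl5 (−0.03) and Rpl11 (0.00) did not pass. Of 15 genes of folding and quality control at the ribosome, 3 were lower, namely G3bp1 (−1.52), Zfp598 (−0.74) and Nacad (−1.40), and none was higher, a number lower that is near the share over all genes. None of these 5 lists held a gene past the threshold by genotype in either cell type or in the interaction.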

How the data were processed

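The first deposited table held expected counts (estimated reads per gene, 44.6% of the values not whole), as the authors deposited them. Per the submitters' processing notes the tools were kallisto 0.44.0, DESeq2 1.18.1 and R 3.4.4 and the build was GRCm38.p6, with no step assigned to any. The other deposited table, a signal that the authors had normalized, served in 1 alternative. No column was left unmapped (0).

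Expected counts of the repeat libraries of a mouse were summed and rounded. The 13 mitochondrial genes were removed before library sizes. Tests used edgeR 4.0.16 in R 4.3.3 (filterByExpr, TMM, robust quasi-likelihood, two-sided, Benjamini-Hochberg over all nuclear genes, threshold 0.05): genotype within each cell type (3 against 3 mice), cell type with the mouse as a block (6 mice) and their interaction. Alternatives used DESeq2 1.42.0 and limma 3.58.1. The fits were tested on simulated data. Transcript lengths, coordinates and 31-base overlaps came from GENCODE M21 (shortest principal protein-coding transcript), which held 83 of 83 members. For Rps20 that transcript is 3706 bases long, so its level per length is low.

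The ratio of Rpl3l to Rpl3 was log2((Rpl3l + 0.5)/(Rpl3 + 0.5)), tested with exact tests over mice. Across genotypes, cardiomyocyte libraries that share a repeat number did not deviate together (mean correlation 0.016, lowest −0.456, highest 0.416, 18 pairs), so the number pairs no mice. Where the labels do not say that samples came from separate preparations, p-values measure only the spread between these samples. Intervals and floors cover counting error only. Whether reads were counted by strand is not stated in the labels. Members that overlap genes on the opposite strand carry that uncertainty, among them Rpl3, Rpl5, Rpl12, Rpl22l1, Rpl28, Rpl7l1, Rps2 and Rps14. Genes were named by a rule on paralog pairs, stalk proteins, the extremes per length and the lowest p (up to 6 a direction, 3 where fewer passed; up to 3 a direction from each list); genes of the wide-range paragraph and Rpl11 were chosen after their values were seen. The members and lists were chosen with earlier results of these data known. Not every item that these rules name is reported here.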

Additional observations from a re-analysis of the deposited data

Results flagged for a closer look

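The ribosomal protein share of nuclear counts was lower in cardiomyocytes than in fibroblasts in 1 of 6 mice, Tg3 (difference −0.875 percentage points), and its gap to the nearest of the other mice, divided by the range of all 6, was 0.699, above Dixon's 95% critical value of 0.625. It was the only one past that value among 12 within-mouse differences examined; chance alone passes about 1 in 20 such groups. Tg3 had 3.65% in cardiomyocytes and 4.52% in fibroblasts.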

How the results depend on the processing

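By genotype in cardiomyocytes, by genotype in fibroblasts and in the interaction, 0 members were called under each alternative run (0 to 0 when 1 mouse was left out); such counts of 0 say nothing about stability. Under the replicate block on the 12 cardiomyocyte libraries 0 members were called, the same as without it. By cell type, 9 members were called with TMM; 20 were called on nuclear library sizes without it, all higher, where the median of all genes shifted to 0.38. Leaving out 1 mouse gave 6 to 15, and without the mouse block (no replicate block) 9 were called. Rpl27 changed sign when the row of its copy was added, an alternative chosen after seeing the data (0.0357). The difference in share between cell types became −0.807 percentage points when taken of all counts, because mitochondrial counts then enter the total, and was 0.972 to 1.51 when 1 mouse was left out. The cell type difference of the log2 ratio of Rpl3l to Rpl3 was 1.84 to 2.35 with 1 mouse left out, where 5 mice cannot give an exact p below 0.0625. By genotype the ratio was −1.12 to 0.0845 in cardiomyocytes, changing sign without Tg1, and −0.437 to 0.138 in fibroblasts, changing sign without WT1. Rpl22l1 by genotype in fibroblasts was −0.00715 to 0.954, negative without Tg3. Calls of Rpl3l, Rpl22, Rps21 and Rpl10 by cell type held under all 16 alternatives. So did that of Rpl10l, which passed the low-count filter through its cardiomyocyte columns alone. The calls of Rpl36, Rps15, Rps19 and Rpl27 were lost under 3, 2, 4 and 2, beside the change of sign of Rpl27. The causes were not tested.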
